A study of Mus musculus with 15 samples.

Results

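Inguinal beige adipocytes of mice given CL316243 (CL) were set against inguinal beige adipocytes of mice given rosiglitazone (RG), over 3 CL arrays (CL 1, CL 3 and CL 4) and 3 RG arrays (RG 2, RG 3 and RG 4). These 6 arrays, taken by their labels, are part of a set of 15. The other arrays held beige adipocytes after roscovitine (RS, 2 arrays), brown adipocytes of untreated mice (BAT, 3 arrays) and white adipocytes of untreated mice (WAT, 4 arrays). All mice were UCP1/Tomato reporter animals 8 to 10 weeks old. CL, RG, RS and BAT cells were sorted as UCP1-positive and WAT cells as UCP1-negative. The sorting marker is written as UCP1(GFP) and the strain as UCP1/Tomato, and the labels do not say which fluorescent protein set the gate. A Ucp1-driven reporter marks cells by the history or strength of that promoter, so every CL and RG cell had passed a gate on the gene that defines a beige cell. Dose, length of treatment, sex and the number of mice per array are not given in the sources used here, and neither is a vehicle-treated inguinal UCP1-positive group, so the comparison is of one drug against another. Nothing in the labels says that arrays of a group came from separate mice, and p-values measure only the spread between these samples.

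CL316243 is an agonist of the beta3-adrenergic receptor, which in rodents sits mainly on adipocytes. It raises cyclic AMP, which activates protein kinase A, starts lipolysis and induces thermogenic genes such as Ucp1, the proton carrier that lets mitochondria release energy as heat. Rosiglitazone is a thiazolidinedione that binds the nuclear receptor PPARG, the factor that drives adipocyte differentiation, and it makes white fat cells take on beige features by way of that receptor.

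Levels are on a log2 scale, with 1 probe set per gene, and differences are CL minus RG on that scale. A probe set is called changed where limma, fitted on all 15 arrays, gave a Benjamini-Hochberg adjusted p under 0.05 over 25206 probe sets. Correlations between arrays over all probe sets were 0.963 to 0.976 within CL, 0.971 to 0.982 within RG and 0.952 to 0.962 between them. Array medians lay between 3.40 and 3.43 in CL and between 3.35 and 3.38 in RG. WAT 4 and RS 3 enter the spread estimate but not the contrast. WAT 4 had a mean adipocyte marker level of 7.88, against 9.01 to 9.49 in WAT 1, WAT 2 and WAT 3, and RS 3 a mean endothelial marker level of 3.96, against 5.87 in RS 4. Without both of them 1189 probe sets were called. In sorted bulk samples, fewer cells of a type and less RNA per cell cannot be told apart.

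The fatty acid elongase Elovl3, the acyl-CoA synthetase Acsl5, 7 of 25 thermogenic genes with Ucp1 among them, and the phosphatases Phospho1 and Alpl were higher in CL than in RG. Neuronatin, the imprinted gene Peg3, 6 of 37 immediate-early genes and 4 of 29 interferon-stimulated genes were lower. In all, 724 probe sets were called (2.87% of those tested), 416 of them higher in CL (1.65%) and 308 lower (1.22%). Groups did not overlap for 723 of the 724, where 25.8% of all probe sets showed no overlap. An unadjusted limma p under 0.05 was reached by 4896 of the 25206 probe sets, the background for the unadjusted counts given below. The largest fold was 11.3 among the higher and 5.86 among the lower. The split depended on level and on scaling. Among the 6037 probe sets with a mean of at least 5 over the 15 arrays, 53 were higher and 126 lower. Among the 19169 below that mean, 363 were higher and 182 lower. With each array centred on its median, 301 were higher and 385 lower, so that the share of higher calls was 43.9% in place of 57.5%. With quantile normalization 219 were higher and 223 lower, a share of 49.5%. Olfactory and vomeronasal receptor genes held 49 of the higher calls and 5 of the lower among 1354 probe sets. Their mean level per array was 2.17 to 2.27 in CL and 1.99 to 2.05 in RG, near the bottom of the scale.

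The count rested on RG 2 and RG 3. Without RG 2, 32 probe sets were called, and without RG 3, 28. Leaving out RG 4 left 295, leaving out CL 1 left 199, CL 3 347 and CL 4 229. Whichever of the 6 arrays was left out, 20 probe sets stayed called, 11 higher and 9 lower in CL. They include Elovl3, Acsl5, Acot11, Phospho1 and Alpl among the higher and Rnd3 among the lower. Others of the 20, singled out after their values were seen, are Scd3, a stearoyl-CoA desaturase (2.51-fold higher in CL), Sdc4, a heparan sulfate proteoglycan of the cell surface (2.70-fold higher in RG), and Dock11, an exchange factor for Cdc42 (2.42-fold higher in RG).

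**Figure D1:**
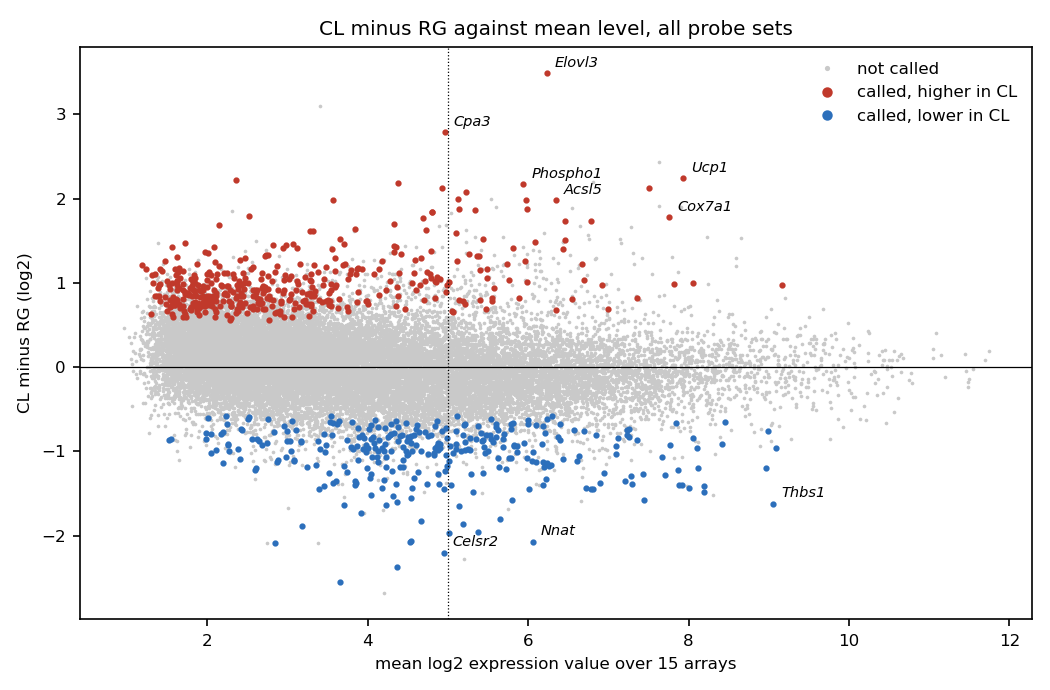
Difference CL minus RG (log2, vertical axis) against the mean log2 value over 15 arrays (horizontal axis), with 1 point per probe set; red points were called higher and blue points called lower in CL, grey points were not called, and the dotted line marks a mean of 5. Left of that line 363 higher and 182 lower calls lie, and right of it 53 higher and 126 lower.

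The largest difference was that of Elovl3, which elongates saturated and monounsaturated very long-chain fatty acids and is induced by cold in brown fat. Its level was 9.05, 8.98 and 8.70 in CL 1, CL 3 and CL 4, against 5.06, 5.02 and 6.17 in RG 2, RG 3 and RG 4. All CL arrays lay far above all RG arrays, 11.3-fold on average (log2 difference 3.49 ± 0.378 SE, limma adjusted p = 0.00145). Over the 6 leave-outs the adjusted p was 0.00112 to 0.0175. CL arrays averaged 8.91 ± 0.185 (SD, n = 3) and BAT arrays 9.11 ± 0.587 (SD, n = 3), while RG arrays averaged 5.42 ± 0.653 (SD, n = 3) and WAT arrays 3.20 ± 0.514 (SD, n = 4).

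Ucp1 itself, the gene of the gate, was not at one level in the sorted cells. It stood at 10.53, 10.52 and 10.19 in the CL arrays, against 7.69, 7.96 and 8.88 in the RG arrays. The groups did not overlap, and RG 4 came nearest to CL. The fold was 4.71 (log2 difference 2.24 ± 0.497 SE, limma adjusted p = 0.0307). The call was lost without CL 1, CL 3, CL 4, RG 2 or RG 3, with adjusted p of 0.0338 to 0.118 over the 6 leave-outs. BAT arrays averaged 10.87 ± 0.566 (SD, n = 3) and the RS arrays stood at 6.05 and 8.43.

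Of 25 measured thermogenic genes, 7 were higher in CL and 0 lower, and 20 had a CL mean above the RG mean, with a median difference of 0.65 against 0.03 over all probe sets. Besides Elovl3 and Ucp1 these were Acot11, Slc27a2, Cox7a1, Letmd1 and Pank1. Without RG 2 or without RG 3 only 2 of them were called, while 6 were called without RG 4 and 3 to 4 without a CL array. The list median stayed between 0.48 and 0.86 over the leave-outs.

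Acot11, a cold-induced acyl-CoA thioesterase of brown fat, had values of 5.72, 6.28 and 6.37 in CL, against 3.93, 3.85 and 4.59 in RG. It was 4.00-fold higher in CL (limma adjusted p = 0.00274, 0.00166 to 0.0355 over the leave-outs). Slc27a2, a fatty acid transporter that also activates very long-chain fatty acids, had values of 5.98, 6.21 and 4.97 in CL, against 3.20, 2.96 and 4.43 in RG. Its CL 4 and RG 4 values lay closest, the fold was 4.56 (limma adjusted p = 0.0124), and the call was lost without RG 2 or RG 3, with an adjusted p of up to 0.0633. Cox7a1, the cytochrome c oxidase subunit isoform of muscle and brown fat, had values of 9.20, 9.22 and 9.87 in CL, against 7.53, 7.34 and 8.07 in RG. It was 3.44-fold higher in CL (limma adjusted p = 0.0161), a call lost without CL 4, RG 2 or RG 3, with an adjusted p of up to 0.0763. Letmd1, an inner mitochondrial membrane protein that brown fat needs for thermogenesis, was 2.00-fold higher (limma adjusted p = 0.0359, up to 0.129, lost under all 6 leave-outs). Pank1, which catalyses the first step of coenzyme A synthesis, was 2.01-fold higher (limma adjusted p = 0.0441, up to 0.164, kept only without RG 4).

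Other genes by which beige and brown cells are usually recognised did not pass the test. Cidea, a lipid droplet protein, had values of 9.77, 9.53 and 10.43 in CL, against 8.38, 8.37 and 9.38 in RG, without overlap (log2 difference 1.20 ± 0.436 SE, limma adjusted p = 0.145). It was called without WAT 4 and RS 3 (adjusted p = 0.0277) and with arrays weighted by quality (adjusted p = 0.0322). Dio2, the deiodinase that makes active thyroid hormone, differed by 0.68 (limma adjusted p = 0.323) and its groups overlapped. Ppargc1a, the coactivator of mitochondrial biogenesis, had values of 5.36, 5.37 and 6.33 in CL, against 5.58, 5.41 and 6.20 in RG (log2 difference -0.04 ± 0.33 SE, limma adjusted p = 0.959). Its direction turned with the scaling, to 0.03 with quantile normalization. Prdm16, the zinc finger regulator of brown fate, differed by -0.11 ± 0.204 SE (limma adjusted p = 0.808). No member of the 14 beige-selective or the 16 classical brown markers was called, with list medians of 0.17 and 0.29. At an unadjusted p under 0.05, 1 and 2 of them differed.

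**Figure D2:**
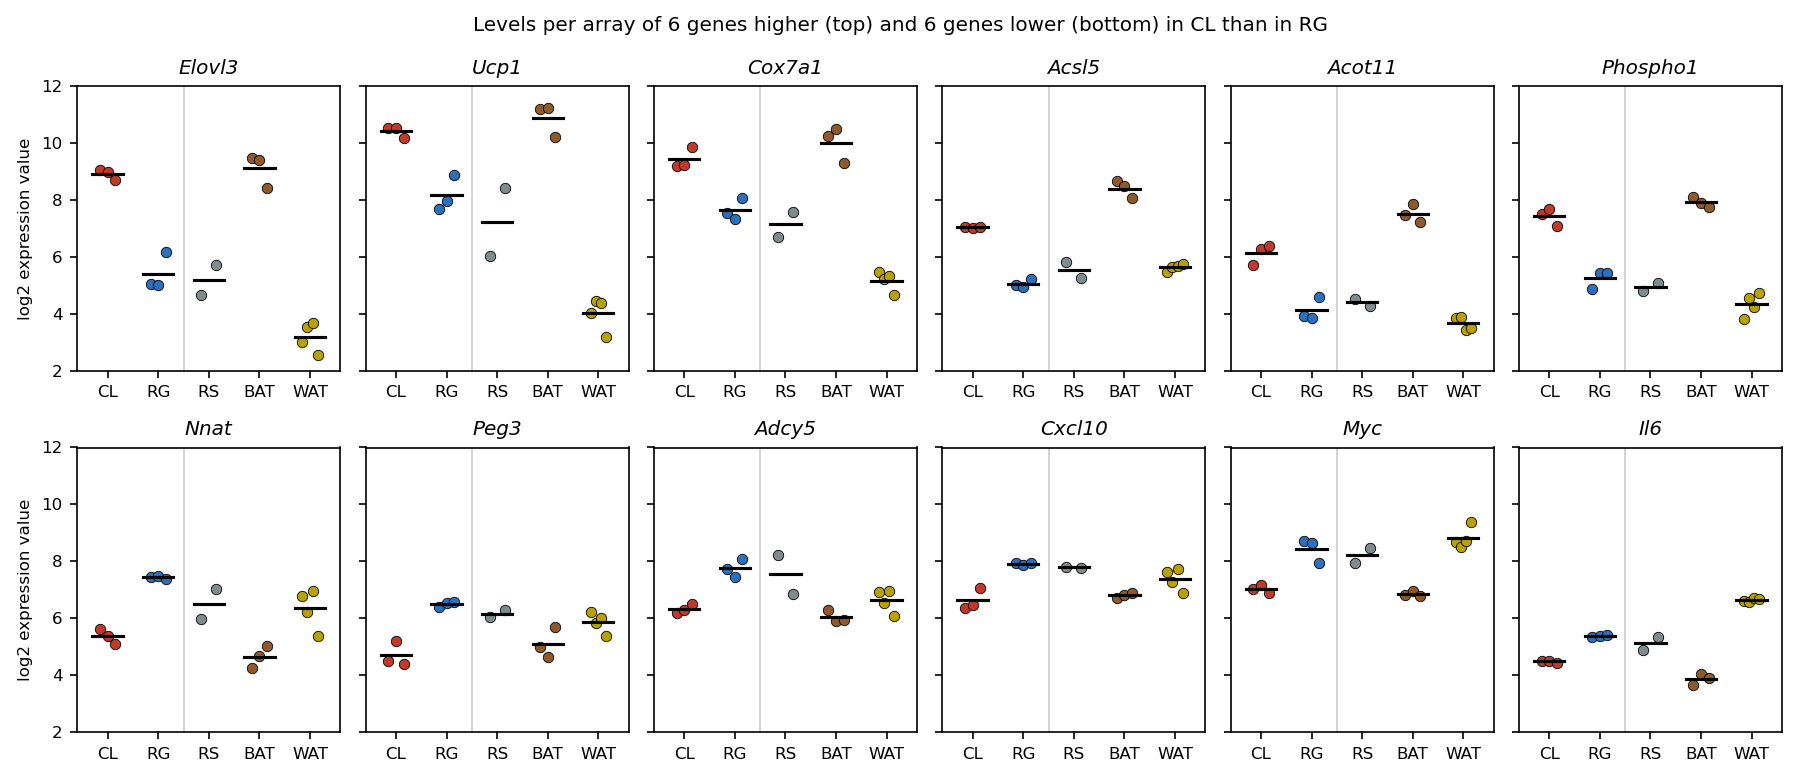
Log2 expression value (vertical axis) on each array, in CL, RG, RS, BAT and WAT from left to right, of 6 genes higher (top) and 6 genes lower (bottom) in CL than in RG; points are arrays and bars are group means. For each of the 12 genes the 3 CL points and the 3 RG points do not overlap, for Elovl3 at 8.70 to 9.05 in CL and 5.02 to 6.17 in RG.

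Fatty acid handling followed in part. Of 26 genes of fatty acid transport and mitochondrial oxidation, 3 were higher in CL and 0 lower, with 20 CL means above RG and a median of 0.23. Acsl5, a long-chain acyl-CoA synthetase of mitochondria and endoplasmic reticulum, had the smallest adjusted p of any probe set. Its values were 7.06, 7.01 and 7.05 in CL, against 5.01, 4.95 and 5.21 in RG, both tight and far apart. The fold was 3.95 (log2 difference 1.98 ± 0.184 SE, limma adjusted p = 0.000371, at most 0.006 over the leave-outs). CL lay between RG and BAT, which averaged 8.40 ± 0.298 (SD, n = 3), and WAT averaged 5.64 ± 0.114 (SD, n = 4). Acaa2, the thiolase of the last step of beta-oxidation, was 1.96-fold higher (limma adjusted p = 0.0203), a call lost without CL 4, RG 2 or RG 3 (adjusted p up to 0.0924). Slc25a20, the carrier of acylcarnitines across the inner membrane, was 1.98-fold higher (limma adjusted p = 0.0298), kept only without RG 4 (adjusted p up to 0.119 otherwise).

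Few genes of the respiratory chain passed the test. Complex I had 30 of 33 measured genes with a CL mean above RG and a median of 0.25, but 0 were called, and 5 had an unadjusted p under 0.05. Without CL 4 that median was 0.07, with 22 of 33 above. Complexes II and III had 0 of 13 called and a median of 0.27, with 1 gene under an unadjusted p of 0.05. Complex IV had 1 of 21 called, Cox7a1, with 19 CL means above RG and a median of 0.37. At an unadjusted p under 0.05, 6 of its genes differed, and 11 showed no overlap. ATP synthase had 0 of 11 called and a median of 0.13, with 2 at an unadjusted p under 0.05. Genes of mitochondrial translation had a median of -0.01 and 0 of 42 called, with 5 at an unadjusted p under 0.05. TCA cycle genes had 0 of 22 called, 0 also at an unadjusted p under 0.05.

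A pair of phosphatases from the creatine and calcium cycling list stood out. Phospho1, which hydrolyses phosphocholine and phosphoethanolamine and is best known from bone mineralisation, had values of 7.50, 7.69 and 7.07 in CL, against 4.87, 5.45 and 5.43 in RG. Phospho1 differed 4.50-fold (2.17 ± 0.243 SE on the log2 scale, limma adjusted p = 0.00155, at most 0.0175 over the leave-outs). Alpl, the tissue-nonspecific alkaline phosphatase that is held to split phosphocreatine in thermogenic fat, had values of 4.67, 5.30 and 5.11 in CL, against 3.80, 3.48 and 3.77 in RG. It was 2.54-fold higher (limma adjusted p = 0.0074, at most 0.0488 over the leave-outs). Neither gene overlapped between groups. The other 20 measured members of the list were not called, and the list median was 0.25.

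Ppp1r3b, which brings protein phosphatase 1 to glycogen, was the 1 called gene of 19 in glycogen metabolism. Its values were 6.36, 6.19 and 6.67 in CL, against 4.71, 3.80 and 5.10 in RG, 3.66-fold higher without overlap (limma adjusted p = 0.0128, up to 0.0642 and lost without RG 2 or RG 3). G0s2, the inhibitor of adipose triglyceride lipase, was the 1 called gene of 15 in lipolysis, 1.98-fold higher in CL (limma adjusted p = 0.0426). That call was lost under each of the 6 leave-outs and with each array centred on its median. De novo lipogenesis had 0 of 22 called and triglyceride synthesis 0 of 20, with 2 and 1 at an unadjusted p under 0.05.

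Among 30 targets of PPARG agonists, 1 was called, a share near the 2.87% over all probe sets, and the median was -0.02. It was Cyp4b1, a cytochrome P450 that hydroxylates fatty acids, and it was higher in CL (3.32-fold, limma adjusted p = 0.0488), with RG 4 at 6.93 next to CL 4 at 7.09. That call was kept only without RG 4, with an adjusted p of up to 0.186 otherwise, and was lost with either other scaling. Pparg had values of 7.62, 7.58 and 7.84 in CL, against 8.23, 8.10 and 8.17 in RG, without overlap. The difference of -0.49 ± 0.181 SE did not pass (limma adjusted p = 0.153), and passed with weighted arrays (adjusted p = 0.0428). The adipocyte hormones Adipoq, at -0.62 ± 0.482 SE, and Lep, at -0.78 ± 0.484 SE, had CL values below all RG values, and neither was called (limma adjusted p = 0.515 and 0.401).

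Of 36 receptors and enzymes of cyclic AMP signalling, 1 was lower in CL and 0 higher, with a median of -0.03, again near the share over all probe sets. The lower one was Adcy5, an adenylyl cyclase inhibited by calcium, at 6.19, 6.28 and 6.50 in CL, against 7.74, 7.46 and 8.10 in RG. It was 2.72-fold higher in RG without overlap (limma adjusted p = 0.0241), and the call was lost under each leave-out, with adjusted p up to 0.0809. Adcy3, a further cyclase isoform of fat, was not called and is named outside the rules given below. Its values were 7.85, 7.68 and 7.60 in CL, against 6.34, 6.38 and 7.08 in RG (log2 difference 1.11 ± 0.329 SE, limma adjusted p = 0.0805). The beta-adrenergic receptor genes were not analysed here.

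Immediate-early and CREB-response genes, which cyclic AMP and many other acute stimuli switch on within minutes, were mostly lower in CL where they were called. Of 37 measured, 6 were lower and 1 higher, and the median was -0.12. The CL mean was above RG for 14 and below for 23, and 18 had an unadjusted p under 0.05. Fos, Fosb, Jun, Junb, Nr4a1, Nr4a2, Nr4a3 and Atf3 were not called. A mean of at least 5 was held by 32 of the 37. The 6037 probe sets at that level had a median of -0.09, near that of the list, with 126 lower and 53 higher calls. Myc, the growth regulator, had values of 7.04, 7.18 and 6.91 in CL, against 8.71, 8.65 and 7.96 in RG, 2.63-fold higher in RG (limma adjusted p = 0.0125). Btg2, an antiproliferative gene, had values of 7.30, 7.59 and 7.74 in CL, against 8.84, 8.95 and 8.45 in RG, 2.30-fold higher in RG (limma adjusted p = 0.0111). Groups did not overlap for either gene. The cytokine Il6 was tight on both sides, at 4.52, 4.52 and 4.45 in CL, against 5.36, 5.38 and 5.41 in RG, 1.85-fold higher in RG (limma adjusted p = 0.0128). Egr2, a zinc finger gene, was 2.30-fold higher in RG and Cebpd, a C/EBP factor of early adipogenesis, 1.89-fold (limma adjusted p = 0.0167 and 0.0347). Irs2, an insulin receptor substrate, was 1.57-fold higher in RG (limma adjusted p = 0.035). The 1 higher member was Dusp4, a phosphatase of MAP kinases, 1.76-fold higher in CL (limma adjusted p = 0.0471), lost under each leave-out and with median centring. Without RG 2, and likewise without RG 3, 0 of the 6 lower members were called, and without CL 1, 3 were.

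Interferon-stimulated genes had 4 members lower in CL and 0 higher among 29, with 23 CL means below RG and a median of -0.20. Under quantile normalization 2 were called. Cxcl10, a chemokine that attracts T cells, had values of 6.36, 6.46 and 7.08 in CL, against 7.93, 7.88 and 7.96 in RG. It was 2.45-fold higher in RG (limma adjusted p = 0.0125), lost without RG 2 or RG 3 (adjusted p up to 0.0596). Gbp2, a guanylate-binding GTPase, had values of 6.11, 6.43 and 6.47 in CL, against 7.96, 7.56 and 7.59 in RG. It was 2.58-fold higher in RG (limma adjusted p = 0.0111), lost without RG 2 (adjusted p = 0.054). Ifit1, which binds foreign RNA ends, had values of 3.57, 3.70 and 3.17 in CL, against 5.84, 5.01 and 5.08 in RG. It was 3.56-fold higher in RG (limma adjusted p = 0.0421), as was the factor Irf1 by 1.79-fold (limma adjusted p = 0.0426), and both calls were lost under each of the 6 leave-outs, with adjusted p up to 0.157 for Ifit1 and 0.151 for Irf1. All 4 genes were without overlap. The macrophage markers beside them had a median of 0.01, 0 of 21 called, and mean levels of 5.63, 5.95 and 5.02 in CL, against 5.69, 6.05 and 4.98 in RG. Medians were 0.11 for dendritic cell markers, 0.36 for T, NK and innate lymphoid markers and 0.38 for B cell markers, with 0 called. The part of immune cells in the interferon differences was not tested.

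Promoter sequence is shown for genes of these lower lists because both lists are usually tied to a short DNA element, the interferon-stimulated response element and the cAMP response element. Sequences are from RefSeq, mouse build GRCm38.p6, 250 bases before to 50 after the gene's start, on the gene's strand. Capitals mark the core of the interferon element, GAAA repeated after 2 further bases, on either strand, in the first 3 and the cAMP response element TGACGTCA in the last. They lie at chr5:92348840-92349139 (minus strand, Cxcl10), chr19:34640639-34640938 (plus strand, Ifit1), chr3:142620413-142620712 (plus strand, Gbp2) and chr1:134079106-134079405 (minus strand, Btg2).
Cxcl10: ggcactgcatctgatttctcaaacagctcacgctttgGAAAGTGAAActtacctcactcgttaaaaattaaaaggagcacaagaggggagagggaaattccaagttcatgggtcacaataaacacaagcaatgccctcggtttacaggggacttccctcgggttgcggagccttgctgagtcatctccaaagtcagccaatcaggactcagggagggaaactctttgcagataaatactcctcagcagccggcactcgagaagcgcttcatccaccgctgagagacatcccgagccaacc
Ifit1: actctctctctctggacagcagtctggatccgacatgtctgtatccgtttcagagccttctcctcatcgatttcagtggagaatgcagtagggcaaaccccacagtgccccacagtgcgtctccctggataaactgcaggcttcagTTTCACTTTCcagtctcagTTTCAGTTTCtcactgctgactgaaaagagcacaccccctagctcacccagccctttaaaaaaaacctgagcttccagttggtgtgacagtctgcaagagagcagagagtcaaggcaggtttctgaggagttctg
Gbp2: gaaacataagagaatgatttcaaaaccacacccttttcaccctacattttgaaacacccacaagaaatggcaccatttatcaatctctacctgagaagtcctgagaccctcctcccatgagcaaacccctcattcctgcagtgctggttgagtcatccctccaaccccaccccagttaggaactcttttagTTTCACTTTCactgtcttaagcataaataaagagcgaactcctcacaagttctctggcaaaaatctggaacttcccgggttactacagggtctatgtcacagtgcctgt
Btg2: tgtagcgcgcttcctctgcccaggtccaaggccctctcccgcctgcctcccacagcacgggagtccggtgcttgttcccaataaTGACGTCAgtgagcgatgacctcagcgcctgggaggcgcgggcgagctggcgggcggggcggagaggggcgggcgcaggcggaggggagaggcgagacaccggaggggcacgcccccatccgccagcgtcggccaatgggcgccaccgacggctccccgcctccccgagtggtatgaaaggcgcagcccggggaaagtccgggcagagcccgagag
The first match begins at position -213 from the start site in Cxcl10, -104 in Ifit1, -59 in Gbp2 and -166 in Btg2. Ifit1 holds 2 matches and the other promoters 1 each. The interferon core was found in 14 of the 24 promoters of the interferon list that matched a RefSeq entry, and in 3 of the 4 called members, the exception being Irf1. Over all 17452 promoters of named probe sets 3.88% hold it, as do 5.30% of 283 promoters of genes higher in CL and 5.42% of 203 promoters of genes lower in CL. The cAMP element was present in 2.58% of all promoters, in 2 of the 283 (0.707%) and in 8 of the 203 (3.94%). Within the immediate-early list 2 of 27 promoters hold it, 1 of them in a called member, Btg2. The PPAR response element, AGGTCA repeated after 1 further base, was found in 0.063% of all promoters, in 1 of the 283 and in 0 of the 203. Both strands were searched, and none of these motifs contains another. A match describes letters in this window and does not show binding.

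**Figure D3:**
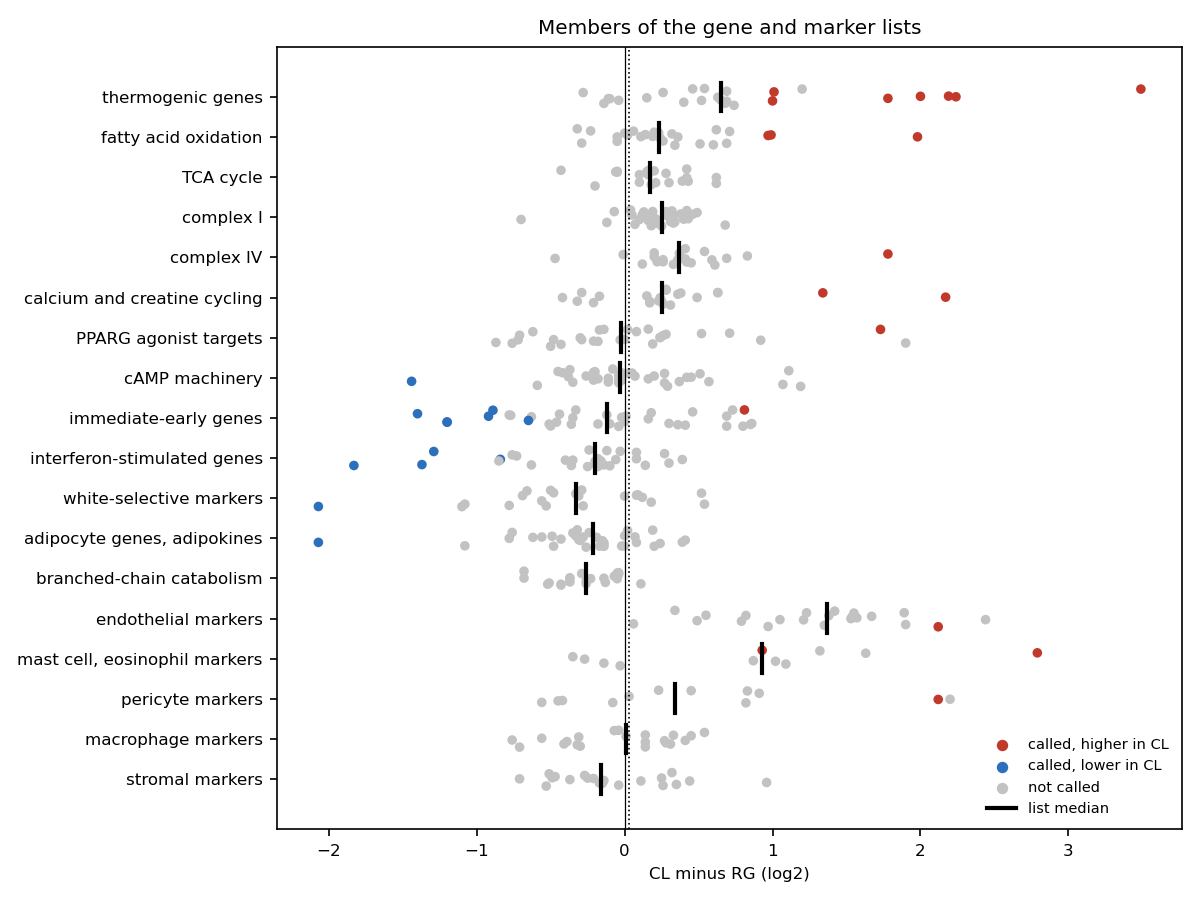
Difference CL minus RG (log2, horizontal axis) of each measured member of 18 gene and marker lists, with the list median as a black bar; red members were called higher and blue members lower in CL, grey members were not called, and the dotted line is the median of all probe sets. Endothelial markers lie furthest right, with a median of 1.36, then the mast cell and eosinophil markers at 0.93 and the thermogenic genes at 0.65.

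Nnat, Peg3 and Zbtb16 were among the 15 largest decreases. Nnat, neuronatin, an imprinted membrane proteolipid, had values of 5.63, 5.37 and 5.12 in CL, against 7.46, 7.48 and 7.40 in RG. RG arrays were nearly identical and far above CL, 4.21-fold (limma adjusted p = 0.0125), and the call was lost without RG 2 or RG 3 (adjusted p up to 0.0596). Nnat was the 1 called member of both the 21 white-selective markers, whose median was -0.33, and the 34 mature adipocyte genes and adipokines, whose median was -0.21. Peg3, an imprinted zinc finger gene, had values of 4.51, 5.21 and 4.39 in CL, against 6.41, 6.53 and 6.57 in RG, 3.48-fold higher in RG (limma adjusted p = 0.0097, lost without RG 3 at 0.0522). Zbtb16, the transcription factor PLZF, had values of 6.33, 6.76 and 7.11 in CL, against 8.11, 8.54 and 8.30 in RG, 3.00-fold higher in RG (limma adjusted p = 0.00828, lost without RG 3 at 0.0532). Groups did not overlap for any of these.

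Rnd3 was lower in CL under every leave-out. It had values of 4.08, 3.92 and 4.30 in CL, against 5.99, 5.88 and 5.39 in RG, 3.15-fold higher in RG (limma adjusted p = 0.00553, at most 0.0384). Cers6, a ceramide synthase for palmitoyl-ceramides, was 3.90-fold higher in RG, and its call was lost without CL 1, CL 4, RG 2 or RG 3 (limma adjusted p = 0.0172, up to 0.0841). Celsr2, an adhesion receptor of the cadherin family, was 4.59-fold higher in RG, and its call held only without CL 4 (limma adjusted p = 0.0229, up to 0.0826). Alkal2, a ligand of the ALK receptor, was 3.64-fold higher in RG (limma adjusted p = 0.0125, up to 0.0697, lost without RG 2 or RG 3). Thbs1, the matrix protein thrombospondin, had values of 7.98, 7.85 and 8.37 in CL, against 10.09, 9.56 and 9.40 in RG. It was 3.07-fold higher in RG (limma adjusted p = 0.0328, up to 0.126, lost under all 6 leave-outs). The rest of the 15 largest decreases were Ifit1, Vnn1, Frat2, Gdap10, Gbp11, Gsto2 and Emp1, 2.79 to 3.56-fold higher in RG. Of the 15 largest decreases, 12 lost their call without RG 2 and 13 without RG 3.

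Branched-chain amino acid catabolism had 20 of 21 CL means below RG, a median of -0.26 and 0 called, with 1 under an unadjusted p of 0.05. The median ran from -0.48 to -0.13 over the leave-outs. Other lists gave few calls, where 2.87% of all probe sets were called. The 47 brown and beige transcriptional regulators held 1 higher call (Id1) and 2 lower (Irf4 and Cebpd). The 33 secreted factors held 2 lower calls (Igf1 and Il6). The unfolded protein response list had 1 of 32 called, the circadian clock list 1 of 18 and the angiogenic ligands 1 of 17. Lower in CL were the transcription factor Irf4 (1.90-fold higher in RG), the unfolded-protein factor Xbp1 (1.69-fold), the clock-linked repressor Nfil3 (2.04-fold), the growth factor Igf1 (1.69-fold) and the endothelial ligand Angpt1 (2.35-fold), with limma adjusted p of 0.0492, 0.0377, 0.0111, 0.0358 and 0.035. Id1, an inhibitor of basic helix-loop-helix factors, was 2.40-fold higher in CL (limma adjusted p = 0.0401). Nfil3 lost its call without RG 2 or RG 3, Igf1 and Id1 kept theirs only without RG 4, and Irf4, Xbp1 and Angpt1 lost theirs under all 6 leave-outs. The cell cycle list had 0 of 41 called and 8 at an unadjusted p under 0.05, near the share over all probe sets (4896 of 25206).

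Adipocyte markers were well above the array medians in both groups, with a mean over 11 markers of 9.66, 9.60 and 10.05 in CL, against 9.92, 9.90 and 10.19 in RG. The 8 thermogenic adipocyte markers averaged 8.16, 8.16 and 8.57 in CL, against 6.70, 6.60 and 7.55 in RG. Markers of other cells differed too. All 22 endothelial markers had a CL mean above RG, with a median of 1.36. Their mean level was 6.53, 7.07 and 6.06 in CL, against 4.82, 5.02 and 6.01 in RG, so that CL 4 and RG 4 nearly met and RG 4 was the highest RG array here as it was for Ucp1. Only Kdr, the VEGF receptor, was called, although 18 of the 22 had an unadjusted p under 0.05. Kdr had values of 8.55, 9.08 and 7.95 in CL, against 5.87, 6.03 and 7.31 in RG (4.36-fold, limma adjusted p = 0.0492, up to 0.171, kept only without RG 4). Without WAT 4 and RS 3, 10 of the 22 were called, and with median centring or quantile normalization 0.

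Several of the 15 largest increases are genes that endothelial cells or pericytes are known to express. Dll4, a Notch ligand of growing vessels, had values of 6.79, 7.36 and 6.26 in CL, against 4.72, 4.51 and 5.23 in RG (3.95-fold, limma adjusted p = 0.0243). Podxl, a sialomucin of vessel walls, was 3.69-fold higher (limma adjusted p = 0.0234), and both calls were lost without CL 1, CL 3, RG 2 or RG 3, with adjusted p up to 0.101 and 0.102. Rasgrp3, a Ras exchange factor, was 4.23-fold higher and kept its call only without RG 4 (limma adjusted p = 0.0267, up to 0.109). Kcnj8, the pore of a potassium channel of pericytes, was 4.35-fold higher, the 1 called of 12 pericyte and smooth muscle markers (limma adjusted p = 0.0488, up to 0.184, lost under all 6 leave-outs). Sema7a, a semaphorin, was 3.69-fold higher and also lost its call under all 6 leave-outs, and Ceacam1, an adhesion molecule, was 3.58-fold higher and lost its call without CL 1, CL 3, RG 2 or RG 3 (limma adjusted p = 0.0376 and 0.0361, up to 0.121 and 0.138).

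Of 11 mast cell and eosinophil markers, 2 were called higher in CL and 0 lower, and 7 had a CL mean above RG and 4 below (Ms4a2, Siglecf, Ccr3 and Prg2, at -0.35 to -0.03). Cpa3, the mast cell carboxypeptidase, had the largest fold after Elovl3 among called genes with a mean of at least 5 in the higher group, with values of 5.88, 6.55 and 4.63 in CL, against 2.36, 3.03 and 3.31 in RG. It was 6.90-fold higher in CL (limma adjusted p = 0.0169), lost without CL 1, CL 3, RG 2 or RG 3 (adjusted p up to 0.0782). Tpsab1, a mast cell tryptase, was 1.90-fold higher at levels of 2.96, 3.07 and 3.47 in CL, against 2.34, 2.17 and 2.21 in RG (limma adjusted p = 0.0231, up to 0.0924, lost without CL 4, RG 2, RG 3 or RG 4). The 11 mast cell and eosinophil markers averaged 3.72, 3.78 and 3.29 in CL, against 2.62, 2.89 and 2.87 in RG, low throughout. Markers of T, NK and innate lymphoid cells averaged 4.11 and 4.32 in CL 1 and CL 3, while CL 4, at 3.29, lay below RG 2, RG 3 and RG 4 at 3.50, 3.47 and 3.34. The part of these marker differences in the gene differences above was not tested. CL 4 had the lowest endothelial, mast cell and lymphoid levels of the CL arrays. Thermogenic genes went both ways on it. Its Elovl3 (8.70), Ucp1 (10.19) and Slc27a2 (4.97) values were the lowest among the CL arrays. Its Cox7a1 (9.87), Cidea (10.43), Cox8b (11.08), Otop1 (7.85), Ppargc1a (6.33) and Acot11 (6.37) values were the highest. The mean of the thermogenic adipocyte markers was also highest in CL 4, at 8.57 against 8.16 in both CL 1 and CL 3.

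**Figure D4:**
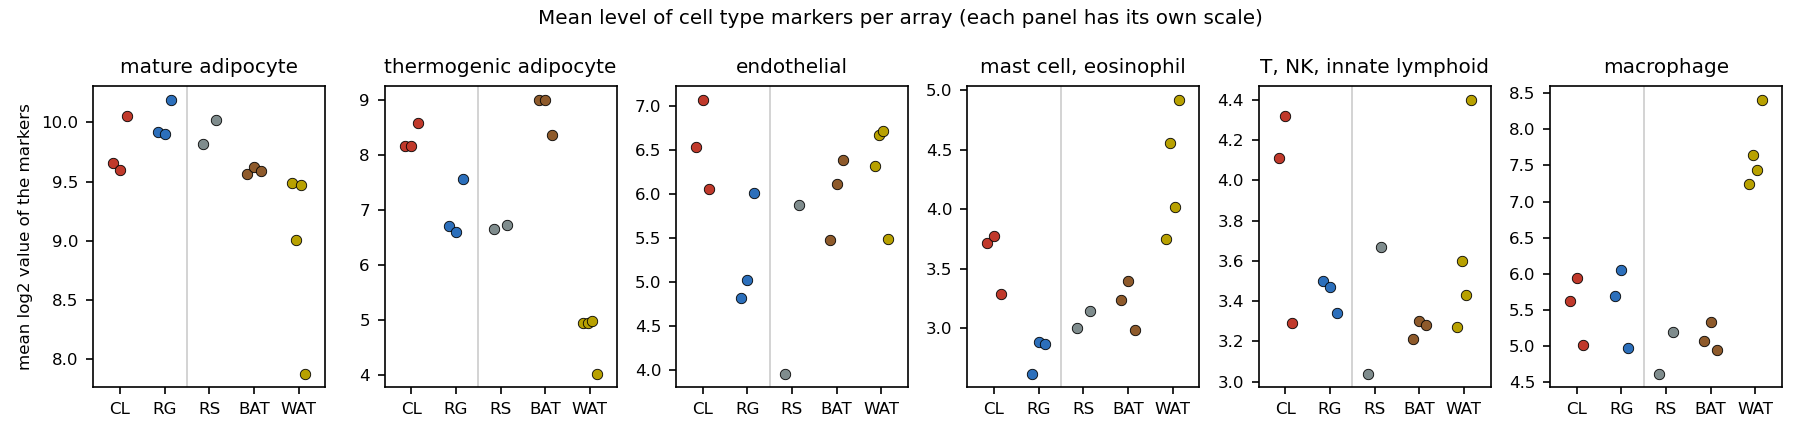
Mean log2 value of the markers of 6 cell types (vertical axis, own scale per panel) on each array, in CL, RG, RS, BAT and WAT from left to right; points are arrays. Endothelial markers stand at 6.06 to 7.07 in CL and 4.82 to 6.01 in RG, macrophage markers overlap, and mature adipocyte markers stand at 9.60 to 10.05 in CL and 9.90 to 10.19 in RG.

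The difference between CL and RG was then set beside that between brown and white adipocytes. The log2 difference between BAT and WAT uses none of the 6 arrays, but its calls do, through the spread estimate of the shared fit. Over all probe sets the log2 differences had Pearson's r = 0.30, and over the 6037 with a mean of at least 5, r = 0.25. These are correlations across probe sets, which are not independent replicates, and all arrays were normalized together. The value was 0.18 without CL 4 and 0.37 without CL 3. Of the 416 probe sets higher in CL, 237 (57.0%) were also higher in BAT than in WAT, 14 (3.37%) lower, and 165 not called, where 44.0% of all probe sets were called between BAT and WAT, 27.6% higher in BAT and 16.4% lower. Of the 308 lower in CL, 170 (55.2%) were lower in BAT, 26 (8.44%) higher, and 112 not called. Probe sets called between CL and RG tend to have a small spread, which also favours calls between BAT and WAT in either direction. The shares over all probe sets are therefore no independent baseline, and the part of the overlap due to the shared spread was not tested. The low end of the scale also differed alike in both comparisons. The 10th percentile per array was 1.97 to 2.03 in CL and 2.11 to 2.15 in BAT, against 1.81 to 1.87 in RG and 1.51 to 1.68 in WAT. Olfactory and vomeronasal receptors averaged 2.33 to 2.38 in BAT and 1.61 to 1.81 in WAT. Of the 416, 363 had a mean under 5. The part of the overlap due to this was not tested. Calls in the opposite direction made up 3.37% and 8.44%, beside 16.4% and 27.6% over all probe sets, and the same limits hold for them.

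Among the 15 largest increases, 7 were called higher in BAT than in WAT, 1 lower and 7 in neither direction. The thermogenic and lipid genes Elovl3 (BAT minus WAT 5.91), Ucp1 (6.85), Slc27a2 (5.03), Acot11 (3.84), Phospho1 (3.58), Ppp1r3b (3.03) and Acsl5 (2.76) were the 7. Cpa3, at -3.56, was the 1 that was lower. The vessel genes Kdr (0.27), Kcnj8 (0.04), Rasgrp3 (0.05), Podxl (0.03) and Dll4 (-0.13) differed little there. Among the 15 largest decreases 12 were also lower in BAT than in WAT and 0 higher. RS arrays had a mean nearer to RG than to CL for all 15 of the increases and 11 of the 15 decreases. No share over all probe sets is given beside these counts. They rest on RS 3 and RS 4, which stood at 6.05 and 8.43 for Ucp1 and at 4.86 and 6.96 for Kdr. For Acsl5, RS arrays stood at 5.84 and 5.25, and for Phospho1 at 4.79 and 5.07.

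**Figure D5:**
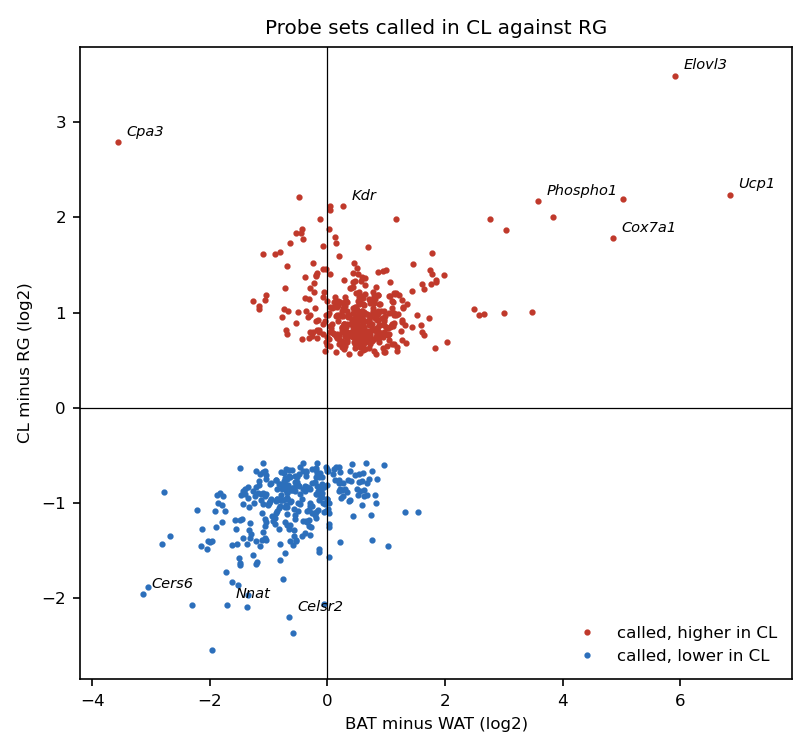
Difference CL minus RG (log2, vertical axis) against difference BAT minus WAT (log2, horizontal axis) for the 724 probe sets called between CL and RG, red where higher and blue where lower in CL. Elovl3 and Ucp1 lie far to the upper right, at 5.91 and 6.85 on the horizontal axis, and Cpa3 lies at -3.56.

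Among probe sets with a mean of at least 7, those whose deviations from the group means were most like those of Ucp1 over the 6 arrays were Grn, a lysosomal growth factor precursor (r = 0.994), Fkbp9 (r = 0.987), Ezh1 (r = 0.985), Dusp6 (r = 0.978) and Nrp1 (r = 0.971), out of 1413 compared. These r values are the highest of 1413 over 6 arrays in 2 groups, so their size reflects the selection. They are descriptions, and none of the 5 genes was called between CL and RG (limma adjusted p = 0.0902 to 0.913).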

How the data were processed

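RNA of FACS-sorted adipocytes was amplified from 2 ng with a GeneChip WT Pico kit and hybridised to Affymetrix arrays, per the labels' protocols. The deposited table is on a log2 scale with 1 value for each probe set on each array, and was made by RMA with affy 1.36.1 and Affymetrix Expression Console, per the submitters' processing notes. The scale was taken from the value range, with no missing values and no further scaling here. Names came from the platform annotation for 23185 probe sets, and 2021 stay unnamed. RMA shrinks folds of dim probe sets, and the number of arrays limits the precision.

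limma 3.58.1 in R 4.3.3 fitted 1 mean per group over 15 arrays, with CL minus RG as contrast and 10 residual degrees of freedom, and was tested on simulated data. Named are the 15 largest increases and 15 largest decreases among called, named probe sets with no overlap and a mean of at least 5 in the higher group (predicted genes, receptors of smell, small RNAs and antigen-receptor segments left out), up to 4 called members per list, 9 fixed beige and adipocyte genes that have a named probe set, and 5 genes most like Ucp1. Members and the 35 gene lists and 17 marker lists were chosen with earlier results of these data known. Alternatives covered the arrays in the fit, scaling, low values, the variance model, array weights, a replicate block and each array left out.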

Additional observations from a re-analysis of the deposited data

Results flagged for a closer look

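Of 37 named genes whose 4 WAT values were examined for a value far from the others, 2 had one, both in WAT 4, where chance alone gives about 1 in 20. Cers6 stood at 7.82 in WAT 4, against 6.77 to 6.85 in the other WAT arrays. Emp1 stood at 9.75 in WAT 4, against 9.05 to 9.15 in the others. WAT 4 does not enter the difference between CL and RG but does enter the spread estimate, and without WAT 4 and RS 3 both genes kept their call. Groups of 3 or fewer arrays, CL and RG among them, were not examined in this way.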

How the results depend on the processing

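No difference of the 65 genes examined that had been called changed direction under any alternative. Against 724 called probe sets (416 higher, 308 lower in CL), 1189 (654 and 535) were called without WAT 4 and RS 3, 442 with quantile normalization (219 higher), 164 (46 and 118) over probe sets with a mean of at least 5, and 2615 (1579 and 1036) with array weights, where RG 2 had a weight of 3.323 and CL 4 of 0.6833. The fit on the 6 arrays alone, median centring, and the trended robust variance gave 607, 686 and 737. Leaving out 1 array gave 28 to 347 called, 14 to 208 higher and 14 to 139 lower. The correlation with BAT minus WAT was 0.30, with 0.21 after quantile normalization and 0.18 to 0.37 over the leave-outs. The causes were not tested. Of 58 called genes, 51 kept their call on the 6 arrays alone, 51 with median centring, 43 with quantile normalization and 8 without RG 2 or without RG 3.

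With the replicate number of the titles as a block, 1 probe set was called higher (Acsl5) and 0 lower, with 2753 at an unadjusted p under 0.05. CL and RG share only the numbers 3 and 4, deviations of same-numbered arrays had r = -0.06 and -0.05, and nothing in the labels ties the numbers to animals or days, so the block pairs no samples.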
